A study of Mus musculus with 29 samples.

Results

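The glucocorticoid receptor gene Nr3c1 was followed in mouse lung together with 9 genes that feed, fold, assist or restrain the receptor: Nr3c2, Fkbp5, Fkbp4, Hsp90aa1, Hsp90ab1, Ptges3, Ncoa2, Hsd11b1 and Hsd11b2. The 10 genes were taken as a named pathway, and every probe whose accession in the array files matched 1 of them was followed, which gave 22 of the 41174 probes on the array. All 22 passed the filter on dim probes, which kept 33923 probes. RNA of whole lung was hybridised to 29 single-colour arrays, 1 per lung sample. The mice were C57BL/6, 6-8 weeks old, and were either Klf15-/- (KO), without the Krüppel-like transcription factor Klf15, or wild type (WT). They had received 2.5 mg/kg of dexamethasone (dex), a synthetic glucocorticoid, or saline. The groups held 4 arrays (KO dex 8 h), 3 (WT dex 8 h), 4 (KO dex 4 h), 4 (WT dex 4 h), 4 (KO saline 8 h), 3 (WT saline 8 h), 3 (KO saline 4 h) and 4 (WT saline 4 h). The labels call the samples biological replicates, but do not name the animals, so p-values set differences against the spread between these samples. They give neither the sex of the mice, the route of injection nor the part of Klf15 that was deleted. The title of the series names the question as gene expression over time under the receptor and Klf15, joined in a feed-forward circuit.

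Without hormone the glucocorticoid receptor sits in the cytoplasm in a complex with the chaperone Hsp90, whose isoforms are encoded by Hsp90aa1 and Hsp90ab1, and with the cochaperone p23, encoded by Ptges3, which steadies the hormone-binding state. The immunophilins FKBP51 (Fkbp5) and FKBP52 (Fkbp4) compete for the same place on Hsp90: FKBP51 lowers the affinity of the receptor for hormone, and FKBP52 favours its transport to the nucleus. Fkbp5 is itself a classical target of the receptor, so that its product closes a negative feedback loop, and the receptor is also known to lower the transcript of its own gene. In the nucleus the receptor recruits coactivators such as NCOA2 (also called GRIP1). The enzymes encoded by Hsd11b1 and Hsd11b2 set how much active corticosterone a cell sees, the first by regenerating it and the second by inactivating it, and the mineralocorticoid receptor, encoded by Nr3c2, binds the same natural hormone. In lung the pathway is known for its part in maturation and in the control of inflammation.

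Levels are given as log2 of the background-subtracted signal minus the 75th percentile of the array (log2 level), so that the array's 75th percentile is 0. Between 75.5 and 88.5% of the 43379 spots of an array were above background by the scanner's criterion. Precision is limited by how many arrays a group holds. The 75th percentile of the signal was 1636 to 2427 on dex arrays and 2043 to 3332 on saline arrays. As a check of the genotype labels, the brighter Klf15 probe (A_52_P64383) lay between -0.89 and 1.37 on the 15 KO arrays and between 1.95 and 4.29 on the 14 WT arrays, so the genotypes did not overlap. Both Klf15 probes stayed well above background on KO arrays. The 7 KO saline arrays stood apart in 1 property that touches the results. For the 2546 genes with a pair of probes over 2 log2 units apart in brightness, the distance between the bright and the dim probe, centred on each gene's mean, averaged -0.37 to -0.12 on the KO saline arrays and -0.08 to 0.29 on the other 22. On the KO saline arrays dim probes thus read higher relative to bright ones. Member results that rest on KO saline arrays are therefore given by probe, and the gene lists, which use the brightest probe of each gene, share this limit in KO lungs. Hsp90aa1, Hsd11b1 and Hsd11b2 have 1 probe each, so for them no second probe can be set beside it. The part of this property in their KO values was not tested. Hsp90aa1 and Hsd11b1 are bright, at mean levels of 4.65 and 4.88, and Hsd11b2 is dim, at -5.81. In whole tissue, fewer cells of a type and less RNA per cell cannot be told apart.

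Each probe was tested with limma in 1 fit over all 29 arrays, and a change was called where the Benjamini-Hochberg adjusted p was under 0.05. At 4 h after dex, 13 of the 22 probes were called in KO lungs (5 higher, 8 lower), where 38.4% of all tested probes were called, and 13 in WT lungs (6 higher, 7 lower), where 34.7% were. At 8 h, 13 probes were called in KO lungs (5 higher, 8 lower), against 35.6% of all probes, and 4 in WT lungs (3 higher, 1 lower), against 18.5%. The 4 of 22 at 8 h in WT lungs is a share of 18.2%, near that of all probes. Probes of 1 gene are not independent, so these shares describe the genes and were not tested. The members split in direction. Fkbp5 rose and Nr3c1 and Fkbp4 fell at 4 h in both genotypes, Fkbp4 in WT lungs on 1 of its 2 probes.

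**Figure D1:**
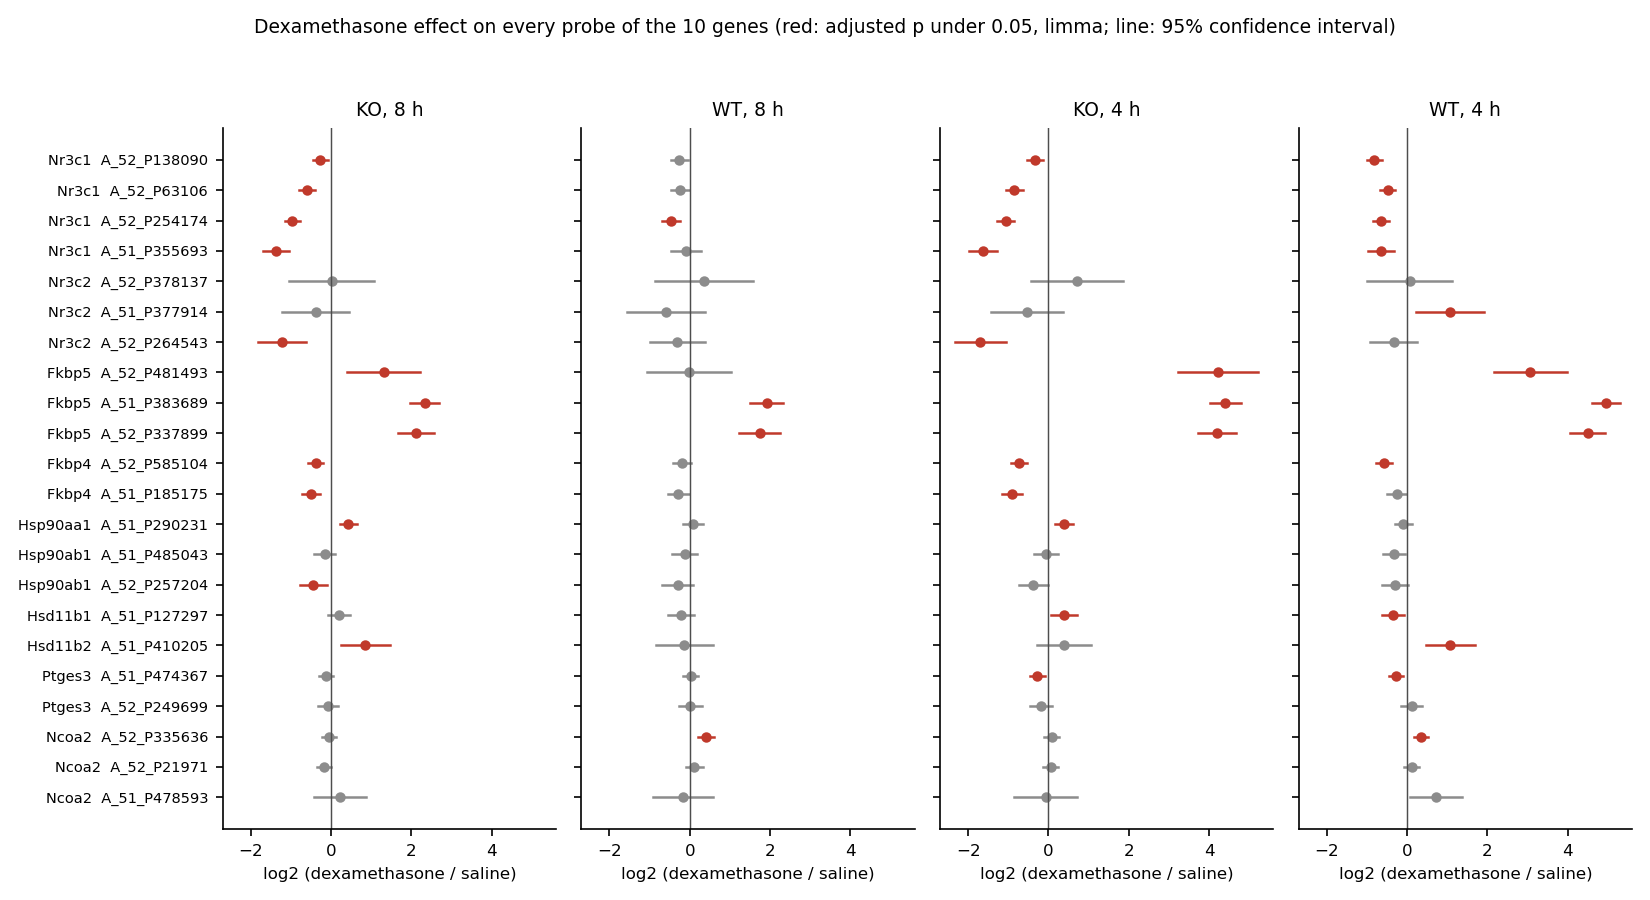
Dexamethasone minus saline (log2) for each of the 22 probes, with 95% confidence intervals, in KO and WT lungs at 8 h and at 4 h. Red marks adjusted p under 0.05 (limma). The 3 Fkbp5 probes stand far to the right at 4 h in both genotypes, and the 4 Nr3c1 probes lie left of 0 in all 4 comparisons.

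Nr3c1, the receptor gene, was lower after dex on all of its 4 probes at 4 h in both genotypes. On its brightest probe (A_52_P138090) the log2 levels in KO dex 4 h lungs were 1.97, 2.17, 1.81 and 1.86, against 2.29, 2.19 and 2.37 in KO saline 4 h lungs. In WT dex 4 h lungs the levels of this probe were 1.97, 2.05, 1.78 and 1.80, against 2.76, 2.63, 2.59 and 2.87 in WT saline 4 h lungs. The groups did not overlap in either genotype, narrowly so in KO lungs. The probe fell by 0.33 (SE 0.10, adjusted p = 0.00796, limma) in KO lungs and by 0.81 (SE 0.09, adjusted p = 1.65e-07) in WT lungs. That is a 1.26-fold lower signal in KO lungs and a 1.76-fold lower signal in WT lungs. The other probes, in order of brightness A_52_P63106, A_52_P254174 and A_51_P355693, fell in KO lungs at 4 h by 0.85 (SE 0.10), 1.06 (SE 0.10) and 1.63 (SE 0.17). In WT lungs at 4 h they fell by 0.48 (SE 0.09), 0.65 (SE 0.09) and 0.66 (SE 0.15), with adjusted p of 0.00186 or lower. The 4 probes thus gave a change of like size in WT lungs, while in KO lungs the change was larger the dimmer the probe. Across the alternatives that were run, none of the 4 calls in WT lungs at 4 h was lost.

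At 8 h the receptor gene was called lower after dex on all 4 probes in KO lungs. In WT lungs all 4 values were below 0, and 1 of the 4 was called. In KO lungs the probes fell by 0.27 (SE 0.09, adjusted p = 0.0184, limma), 0.60, 0.96 and 1.36 (SE 0.15, adjusted p = 4.33e-07), again in order from the brightest to the dimmest. The call on the brightest probe was lost in 5 of 20 alternatives at 8 h and in 2 of 19 at 4 h. In WT lungs A_52_P254174 fell by 0.47 (SE 0.11, adjusted p = 0.00361), a call that was lost (adjusted p = 0.103) when only the groups compared entered the fit. The other WT values were -0.26 (adjusted p = 0.0856), -0.24 (adjusted p = 0.129) and -0.10 (adjusted p = 0.762). On the brightest probe the dex effect in WT lungs was smaller at 8 h than at 4 h, by a difference of 0.55 (SE 0.14, adjusted p = 0.0167), while the others, from the second brightest to the dimmest, gave 0.25 (adjusted p = 0.434), 0.19 (adjusted p = 0.611) and 0.56 (adjusted p = 0.229). The same difference of effects in KO lungs was 0.06 (SE 0.13) on the brightest probe (adjusted p = 0.94).

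Set between genotypes, no difference in the receptor gene was called under dex, and under saline the answer differed by probe. Under dex the 95% intervals of the KO minus WT difference ran from -0.47 to 0.23 over the 4 Nr3c1 probes at 4 h, and from -0.62 to 0.17 at 8 h, where all 4 values were below 0. Under saline at 4 h the brightest probe was lower in KO lungs by a log2 difference of -0.43 (SE 0.10, adjusted p = 0.0044), while the other 3 were higher, by 0.31 (adjusted p = 0.0322), 0.37 (adjusted p = 0.0141) and 0.82 (adjusted p = 0.00244). Under saline at 8 h the dimmest probe was higher in KO lungs by 0.99 (SE 0.17, adjusted p = 0.00132) and the brightest stood at -0.18 (adjusted p = 0.213). Of the calls under saline, those on the dimmest probe were kept in all 17 alternatives at each time, and that on the brightest at 4 h was lost after normexp and in the deposited table. At 8 h A_52_P63106 was higher in KO lungs by 0.32 (adjusted p = 0.0369), and A_52_P254174 stood at 0.24 (adjusted p = 0.128). The probes of the same gene therefore disagreed in sign, and the direction of the genotype difference in Nr3c1 under saline was not settled by these arrays. The distance between the brightest and the dimmest Nr3c1 probe was 3.55 to 4.10 log2 units on the 7 KO saline arrays and 4.59 to 5.47 on the other 22, in the same direction as for the 2546 genes above. Its part in the Nr3c1 differences was not tested.

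**Figure D2:**
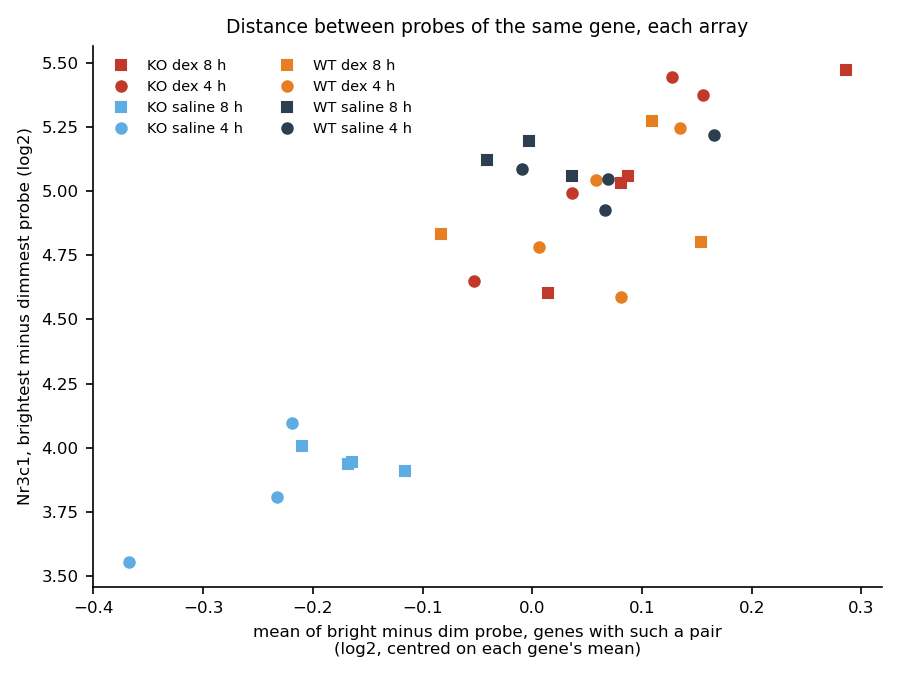
Log2 distance between the brightest and the dimmest Nr3c1 probe (vertical axis) against the mean centred distance between bright and dim probes of 2546 genes (horizontal axis), 1 point per array. The 7 KO saline arrays lie at the lower left, at 3.55 to 4.10, and the other 22 arrays at 4.59 to 5.47.

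The same split by probe ran through the test of the genotype difference in the dex effect. At 4 h the dex effect on the brightest Nr3c1 probe was less negative in KO lungs, by 0.48 (SE 0.13, adjusted p = 0.0253), and that on the dimmest was more negative, by -0.97 (SE 0.23, adjusted p = 0.0142). At 8 h the difference was -0.02 (adjusted p = 0.954) on the brightest and -1.26 (SE 0.24, adjusted p = 0.0123) on the dimmest. On A_52_P63106 and A_52_P254174 it was -0.37 (adjusted p = 0.0849) and -0.41 (adjusted p = 0.0611) at 4 h, and -0.36 (adjusted p = 0.141) and -0.50 (adjusted p = 0.0558) at 8 h. By the mean of the 4 probes, an analysis added after the disagreement was seen, Nr3c1 fell by 0.97 in KO lungs and by 0.65 in WT lungs at 4 h. At 8 h the change in this mean was -0.80 in KO lungs and -0.27 (adjusted p = 0.00707, limma) in WT lungs. The genotype difference in the dex effect on this mean was -0.32 (adjusted p = 0.0279) at 4 h and -0.54 (adjusted p = 0.00475) at 8 h. These comparisons share the KO saline arrays, in which the distance between probes differed.

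**Figure D3:**
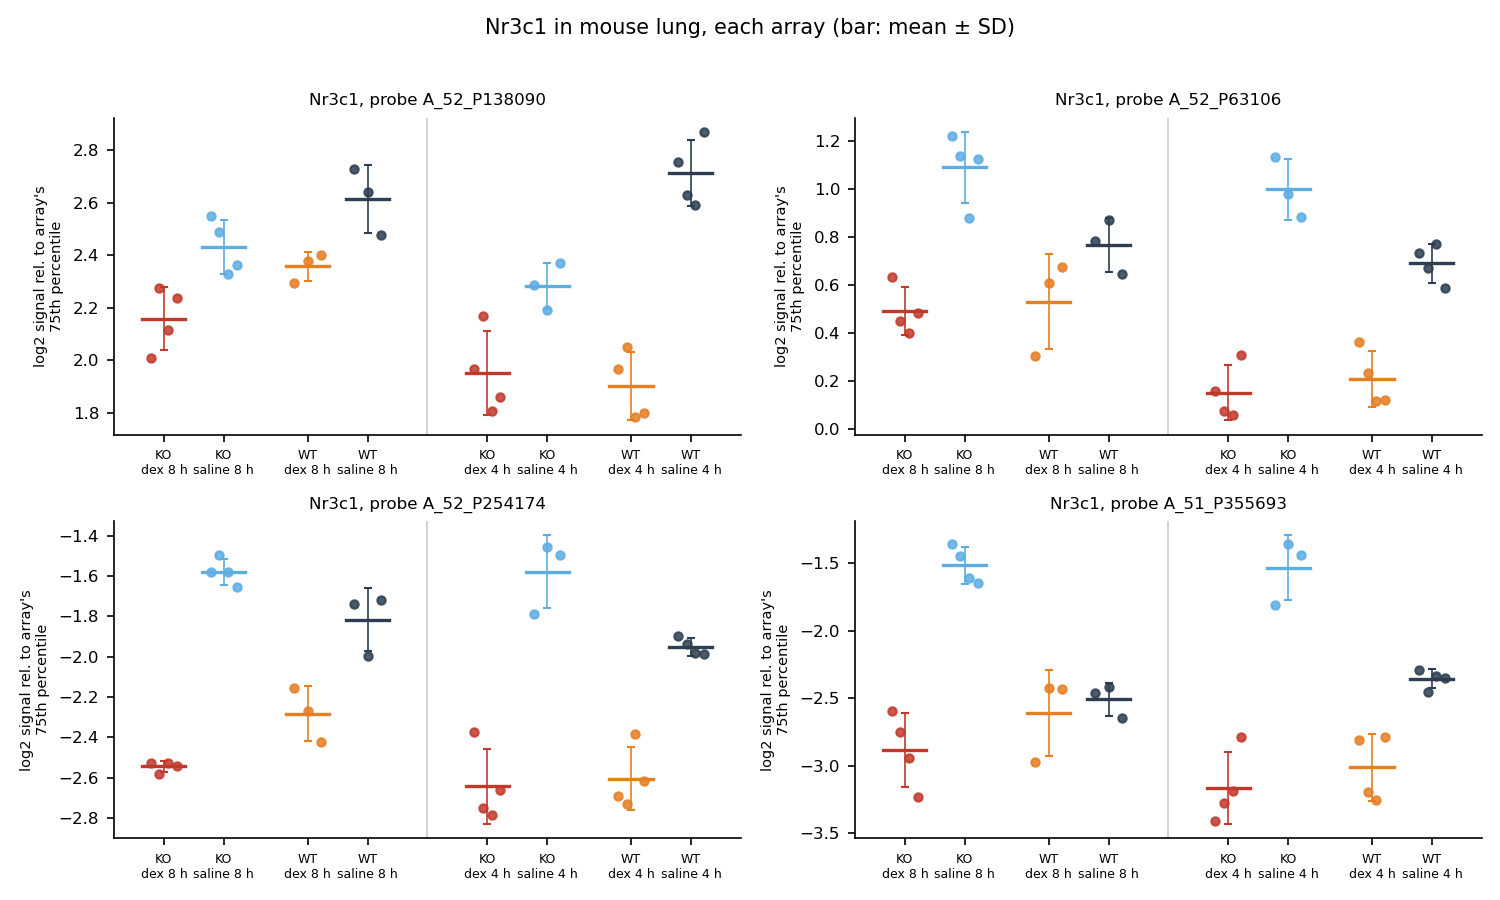
Log2 level of the 4 Nr3c1 probes on each array (points), with mean and SD, for the 8 groups. On the brightest probe (upper left) the WT saline groups have the highest means, while on the dimmest (lower right) the KO saline groups have. At 4 h the dex arrays lie below the saline arrays of their genotype on every probe.

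Over the 29 arrays the genes whose level, as the mean over a gene's probes, followed Nr3c1 most closely among 14808 genes were Tek (Pearson r = 0.975), Lbh (r = 0.973) and Inka2 (r = 0.965). Tek encodes the angiopoietin receptor of endothelial cells. These correlations describe all 29 arrays, which share the treatment, and have no test. The mean of the Nr3c1 probes was 0.04 at 4 h and 0.11 at 8 h in KO saline lungs, against -0.23 and -0.24 in WT saline lungs. On the brightest Nr3c1 probe the WT saline means were the higher ones. The ranking thus takes in a genotype difference under saline whose direction was not settled. Of 5 endothelial markers (Pecam1, Cdh5, Kdr, Tek and Cldn5), 4 were lower after dex in KO lungs at 4 h and 4 in WT lungs, where 1 was higher. Tek, picked above by its correlation with Nr3c1, is among these markers, so they are not independent of that ranking. Over the brightest probe of each gene, 41.4% of 15345 genes were called at 4 h in KO lungs and 35.9% in WT lungs. The mean level of the 5 endothelial markers was 2.95 to 3.1 on KO dex 4 h arrays and 3.75 to 3.87 on KO saline 4 h arrays. It was 2.86 to 3.16 on WT dex 4 h arrays and 3.57 to 3.81 on WT saline 4 h arrays, with no overlap in either genotype. All 6 B cell markers and all 5 NK cell markers were also lower after dex in each of the 4 dex comparisons, as were 5 of 7 T cell markers, where at 8 h 40.8% of all genes were called in KO lungs and 21.8% in WT lungs. The B cell median was -1.76 at 4 h in KO lungs and -2.63 in WT lungs. The part of these cell types in the Nr3c1 values was not tested.

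Nr3c2, the mineralocorticoid receptor gene, had low signals and no change shared by its 3 probes. Its brightest probe (A_52_P378137) was called in no comparison, and its levels spread widely within groups, from -5.42 to -2.86 on WT saline 4 h arrays alone. A_51_P377914 was called higher after dex in WT lungs at 4 h by 1.07 (SE 0.41, adjusted p = 0.0434), with levels of -6.16, -4.77, -6.15 and -3.17 in WT dex 4 h lungs and of -6.21, -6.12, -5.93 and -6.29 in WT saline 4 h lungs. The groups overlapped, with 2 dex arrays above every saline array and 2 among them, and the call was lost in 15 of 19 alternatives. The dimmest probe, A_52_P264543, was well above background on 8 of the 29 arrays, 6 of them KO saline. It was not well above background on any KO dex array at either time, which leaves only a bound on its signal. The signal was dimmer in KO dex than in KO saline lungs at least 1.61-fold at 4 h and at least 1.26-fold at 8 h. This probe passed the filter on dim probes through the KO saline groups alone, and on those arrays dim probes read higher relative to bright ones. These bounds therefore describe the probe and no test is drawn from it. It is still among the probes counted as called after dex in KO lungs at both times. The same holds for KO against WT under saline at 4 h and for the genotype difference in the dex effect at 4 h. On the brightest probe the 95% interval of the dex effect in WT lungs ran from -0.99 to 1.12 at 4 h and from -0.86 to 1.57 at 8 h, so a change within these bounds was not detectable.

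Fkbp5, the feedback cochaperone of the receptor, had by far the widest range among the 10 genes. It is set here beside its paralogue Fkbp4, which moved the other way. The promoters of both are shown as a description of the 2 genes, and their part in the responses was not tested. The sequences are from RefSeq (build GRCm38.p6), from 250 bases before to 50 after the gene's start, 5′ to 3′ on the gene's strand. Capitals mark an E box (CACGTG) in Fkbp5, 169 bases before the start, and the heat shock element letters GAANNTTC in Fkbp4, 151 bases before it.
Fkbp5, chr17:28486100-28486399, minus strand: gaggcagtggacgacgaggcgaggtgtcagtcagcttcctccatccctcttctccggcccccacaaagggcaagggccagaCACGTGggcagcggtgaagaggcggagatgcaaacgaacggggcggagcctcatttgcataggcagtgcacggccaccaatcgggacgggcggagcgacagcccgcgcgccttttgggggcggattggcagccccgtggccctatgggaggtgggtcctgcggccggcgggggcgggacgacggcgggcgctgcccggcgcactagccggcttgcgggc
Fkbp4, chr6:128438607-128438906, minus strand: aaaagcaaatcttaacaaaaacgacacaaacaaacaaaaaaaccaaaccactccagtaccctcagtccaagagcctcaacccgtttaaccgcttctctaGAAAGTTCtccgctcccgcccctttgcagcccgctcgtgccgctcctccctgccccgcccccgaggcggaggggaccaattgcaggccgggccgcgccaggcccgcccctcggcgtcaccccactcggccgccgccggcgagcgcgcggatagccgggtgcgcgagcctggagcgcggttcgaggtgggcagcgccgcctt
Of 32851 RefSeq promoters of this length, 7.15% hold CACGTG and 7.86% hold GAANNTTC, which read the same on both strands. GAANNTTC is not particular to Fkbp4 among the members: it also lies in the Nr3c2 window, 151 bases before the start. The hexamer of the glucocorticoid response element, AGAACA, was searched on both strands and occurs in 19.0% of these promoters. It lies in neither of the 2 windows shown, nor in those of Nr3c2, Hsd11b1 and Ptges3. These were the other members whose window was read, and Nr3c1 was left out of this reading. A match describes letters only, and the absence of the hexamer says only that these letters are not in these windows.

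At 4 h all 3 Fkbp5 probes rose after dex in both genotypes, by 3.07 to 4.96 log2 units. On A_51_P383689 the log2 levels were 2.34, 2.34, 2.58 and 2.43 in KO dex 4 h lungs, against -2.41, -1.62 and -1.91 in KO saline 4 h lungs. In WT dex 4 h lungs they were 2.48, 2.50, 2.49 and 2.61, against -2.17, -2.40, -2.57 and -2.60 in WT saline 4 h lungs. The groups lay more than 3 log2 units apart in both genotypes. The rise was 4.40 (SE 0.18, adjusted p = 5.7e-14, limma; 21.2-fold) in KO lungs and 4.96 (SE 0.17, adjusted p = 3.58e-15; 31.0-fold) in WT lungs. A_52_P337899 rose by 4.19 (SE 0.23) in KO lungs and by 4.49 (SE 0.21) in WT lungs. The brightest probe, A_52_P481493, rose by 4.22 (SE 0.48) in KO lungs and by 3.07 (SE 0.44) in WT lungs. On this probe the saline 4 h arrays were scattered, at -2.50, -1.85 and -0.40 in KO lungs and at -2.15, -1.26, 0.26 and 0.46 in WT lungs. No genotype difference in the dex effect was called on any Fkbp5 probe: at 4 h the differences were 1.15 (95% interval -0.19 to 2.49), -0.55 (-1.07 to -0.03) and -0.31 (-0.95 to 0.34), from the brightest to the dimmest probe.

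**Figure D4:**
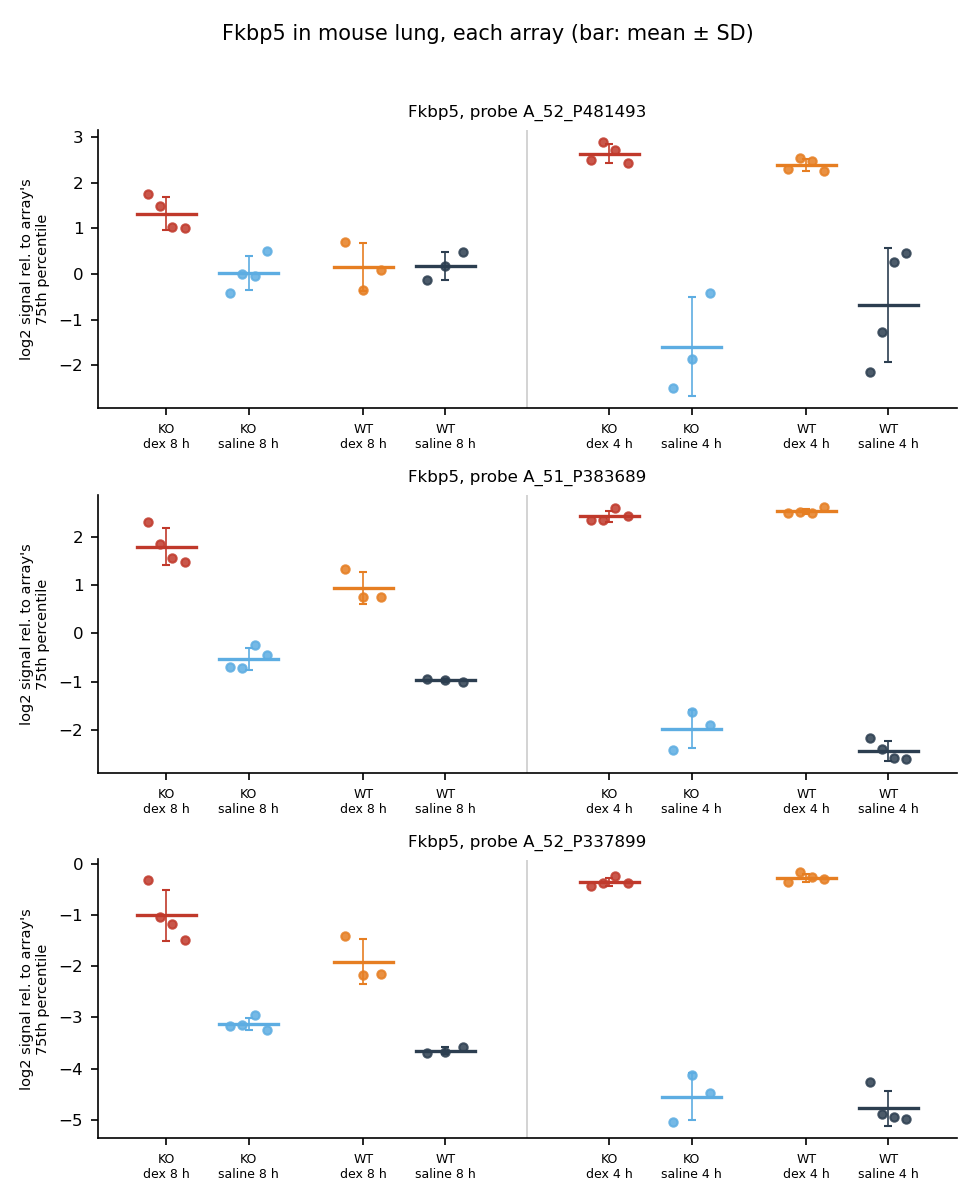
Log2 level of the 3 Fkbp5 probes on each array (points), with mean and SD, for the 8 groups. On the lower 2 panels dex arrays lie above the saline arrays of their genotype at both times, and group means of saline arrays are higher, and those of dex arrays lower, at 8 h than at 4 h. On the upper panel the saline 4 h arrays scatter over more than 2 log2 units.

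At 8 h Fkbp5 was still higher after dex on all 3 probes in KO lungs and on 2 of 3 in WT lungs, by less than at 4 h. On A_51_P383689 the levels were 2.31, 1.84, 1.55 and 1.48 in KO dex 8 h lungs, against -0.70, -0.72, -0.25 and -0.45 in KO saline 8 h lungs. They were 1.32, 0.75 and 0.76 in WT dex 8 h lungs, against -0.94, -0.97 and -1.01 in WT saline 8 h lungs. The groups were apart in both genotypes, with a rise of 2.32 (SE 0.17, adjusted p = 6.48e-10) in KO lungs and of 1.92 (SE 0.20, adjusted p = 4.45e-07) in WT lungs. A_52_P337899 rose by 2.12 (SE 0.21) in KO lungs and by 1.74 (SE 0.24) in WT lungs. On the brightest probe the rise was 1.31 (SE 0.44, adjusted p = 0.0233) in KO lungs, and WT lungs gave -0.02 (95% interval -1.08 to 1.03, adjusted p = 0.984). The brightest probe thus disagreed with the other 2 in WT lungs at 8 h, where their intervals, 1.51 to 2.33 and 1.23 to 2.24, exclude the value it gave.

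The dex effect on Fkbp5 was smaller at 8 h than at 4 h on each probe and in each genotype. The difference of the effects in KO lungs was -2.91 (SE 0.65, adjusted p = 0.0163), -2.08 (SE 0.25, adjusted p = 5.95e-05) and -2.07 (SE 0.31, adjusted p = 0.000604), from the brightest to the dimmest probe. In WT lungs it was -3.09 (SE 0.67, adjusted p = 0.00724), -3.04 (SE 0.26, adjusted p = 2.83e-07) and -2.76 (SE 0.32, adjusted p = 1.34e-05). In this comparison 3 of the 22 probes were called in KO lungs, all Fkbp5, with 2.01% of all probes called, and 4 in WT lungs, 3 of them Fkbp5, with 4.59% of all probes called. On the brightest probe the KO call was lost without KO saline 4 h replicate 41, and the WT call when only the groups compared were fitted. Part of the difference lay in the saline groups. On A_51_P383689 saline lungs were higher at 8 h than at 4 h by 1.45 (SE 0.18, adjusted p = 0.000194) in KO mice and by 1.46 (SE 0.18, adjusted p = 0.000182) in WT mice, with no overlap. On A_52_P337899 the difference was 1.42 (SE 0.23, adjusted p = 0.00244) in KO mice and 1.12 (SE 0.23, adjusted p = 0.0167) in WT mice, and the WT call was lost in 8 of 18 alternatives. The other 3 calls between saline times were lost when only the groups compared were fitted. These were the only member probes called between saline times, 2 of 22 in each genotype, where 0.681% of all probes were called in KO mice and 1.36% in WT mice.

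In the order of its level, Fkbp5 on A_51_P383689 was highest in WT dex 4 h lungs (2.52 ± 0.06, SD, n = 4) and next in KO dex 4 h lungs (2.42 ± 0.11, SD, n = 4), which overlapped. Then followed KO dex 8 h (1.79 ± 0.38, SD, n = 4), WT dex 8 h (0.94 ± 0.33, SD, n = 3), KO saline 8 h (-0.53 ± 0.22, SD, n = 4), WT saline 8 h (-0.98 ± 0.03, SD, n = 3), KO saline 4 h (-1.98 ± 0.40, SD, n = 3) and WT saline 4 h (-2.44 ± 0.20, SD, n = 4). Of these neighbours, the last 2 overlapped, and the others did not. Fkbp5 was higher in KO than in WT lungs at 8 h after dex by 0.85 (SE 0.18, adjusted p = 0.0126) on A_51_P383689, whose groups did not overlap, and by 0.90 (SE 0.23, adjusted p = 0.0341) on A_52_P337899, whose groups did. On the brightest probe the difference was 1.17 (SE 0.48, adjusted p = 0.161). The call on A_51_P383689 was lost without WT dex 8 h replicate 55 or 56 or KO dex 8 h replicate 61, and when only the groups compared were fitted, with adjusted p up to 0.225. That on A_52_P337899 was lost in these settings and without the KO saline arrays. Among 14808 genes, those that followed Fkbp5 most closely over the 29 arrays, by the mean of a gene's probes, were Bcl2l1 (r = 0.992), which encodes the anti-apoptotic protein BCL-XL, Fam107a (r = 0.979) and Fkbp14 (r = 0.976), an immunophilin of the endoplasmic reticulum.

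Fkbp4, the immunophilin that competes with Fkbp5's product on Hsp90, was lower after dex. On its brighter probe (A_52_P585104) the log2 levels were 1.14, 1.06, 0.90 and 1.05 in KO dex 4 h lungs, against 1.86, 1.71 and 1.74 in KO saline 4 h lungs. They were 1.13, 1.10, 1.06 and 0.97 in WT dex 4 h lungs, against 1.74, 1.50, 1.57 and 1.75 in WT saline 4 h lungs. The groups did not overlap, and the probe fell by 0.73 (SE 0.10, adjusted p = 3.24e-06) in KO lungs and by 0.57 (SE 0.09, adjusted p = 2.84e-05) in WT lungs. On the dimmer probe, A_51_P185175, the fall was 0.90 (SE 0.12, adjusted p = 2.24e-06) in KO lungs, and WT lungs gave -0.26 (SE 0.11, adjusted p = 0.0685), a value that missed the threshold although the WT groups did not overlap. At 8 h the brighter probe fell by 0.39 (SE 0.09) and the dimmer by 0.50 (SE 0.11) in KO lungs. In WT lungs at 8 h the values were -0.19 (SE 0.11, adjusted p = 0.241) and -0.29 (SE 0.13, adjusted p = 0.122). Under saline Fkbp4 was higher in KO than in WT lungs on the dimmer probe at 4 h, by 0.56 (SE 0.12, adjusted p = 0.00318), and on both probes at 8 h, by 0.31 on the brighter (adjusted p = 0.0423) and 0.38 on the dimmer (adjusted p = 0.0415). Under dex neither probe was called between genotypes. The 8 h calls were lost in 8 of 19 and in 11 of 17 alternatives.

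The Hsp90 genes, which encode the chaperone itself, and Ptges3, which encodes p23, changed little. The Hsp90aa1 probe (A_51_P290231) had levels of 5.02, 5.09, 4.77 and 4.76 in KO dex 4 h lungs, against 4.76, 4.34 and 4.47 in KO saline 4 h lungs. Its levels were 4.78, 4.72, 4.82 and 4.74 in KO dex 8 h lungs, against 4.28, 4.40, 4.29 and 4.39 in KO saline 8 h lungs. The KO groups did not overlap at 8 h and lay next to each other at 4 h, and the rise was 0.39 (SE 0.11, adjusted p = 0.00682) at 4 h and 0.43 (SE 0.10, adjusted p = 0.00189) at 8 h. WT lungs gave -0.09 (95% interval -0.30 to 0.11) at 4 h and 0.08 (-0.16 to 0.32) at 8 h. At 4 h the effect was larger in KO than in WT lungs by 0.48 (SE 0.15, adjusted p = 0.0431), and this call was lost in 17 of 27 alternatives. The 2 rises in KO lungs were also lost under quantile normalization, with or without normexp, and in the deposited table. The Hsp90ab1 probes were called once, lower after dex in KO lungs at 8 h on A_52_P257204 by -0.44 (SE 0.16, adjusted p = 0.0356), with overlapping groups and a value of -0.16 (adjusted p = 0.358) on the brighter probe A_51_P485043. The brighter Ptges3 probe (A_51_P474367) fell at 4 h by 0.28 (SE 0.09, adjusted p = 0.0144) in KO lungs and by 0.27 (SE 0.08, adjusted p = 0.0116) in WT lungs, and the dimmer (A_52_P249699) was called in no comparison.

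Ncoa2, the coactivator gene, rose after dex on 1 of 3 probes and in WT lungs. On A_52_P335636 the levels were -0.49, -0.68, -0.65 and -0.46 in WT dex 4 h lungs, against -0.81, -1.04, -0.84 and -1.0 in WT saline 4 h lungs. They were -0.49, -0.47 and -0.54 in WT dex 8 h lungs, against -0.92, -0.96 and -0.83 in WT saline 8 h lungs. The groups did not overlap at either time, with a rise of 0.35 (SE 0.08, adjusted p = 0.002) at 4 h and of 0.40 (SE 0.10, adjusted p = 0.00487) at 8 h. KO lungs gave 0.08 (95% interval -0.11 to 0.27) at 4 h and -0.05 (-0.23 to 0.12) at 8 h. The genotype difference in the dex effect was -0.27 (adjusted p = 0.166) at 4 h and -0.46 (SE 0.13, adjusted p = 0.0524) at 8 h, so a difference between the genotypes was not called. On A_52_P21971 dex gave 0.05 to 0.12 in KO lungs at 4 h and WT lungs at both times, and -0.18 in KO lungs at 8 h, none of them called, and the dimmest probe (A_51_P478593) was called in no comparison.

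**Figure D5:**
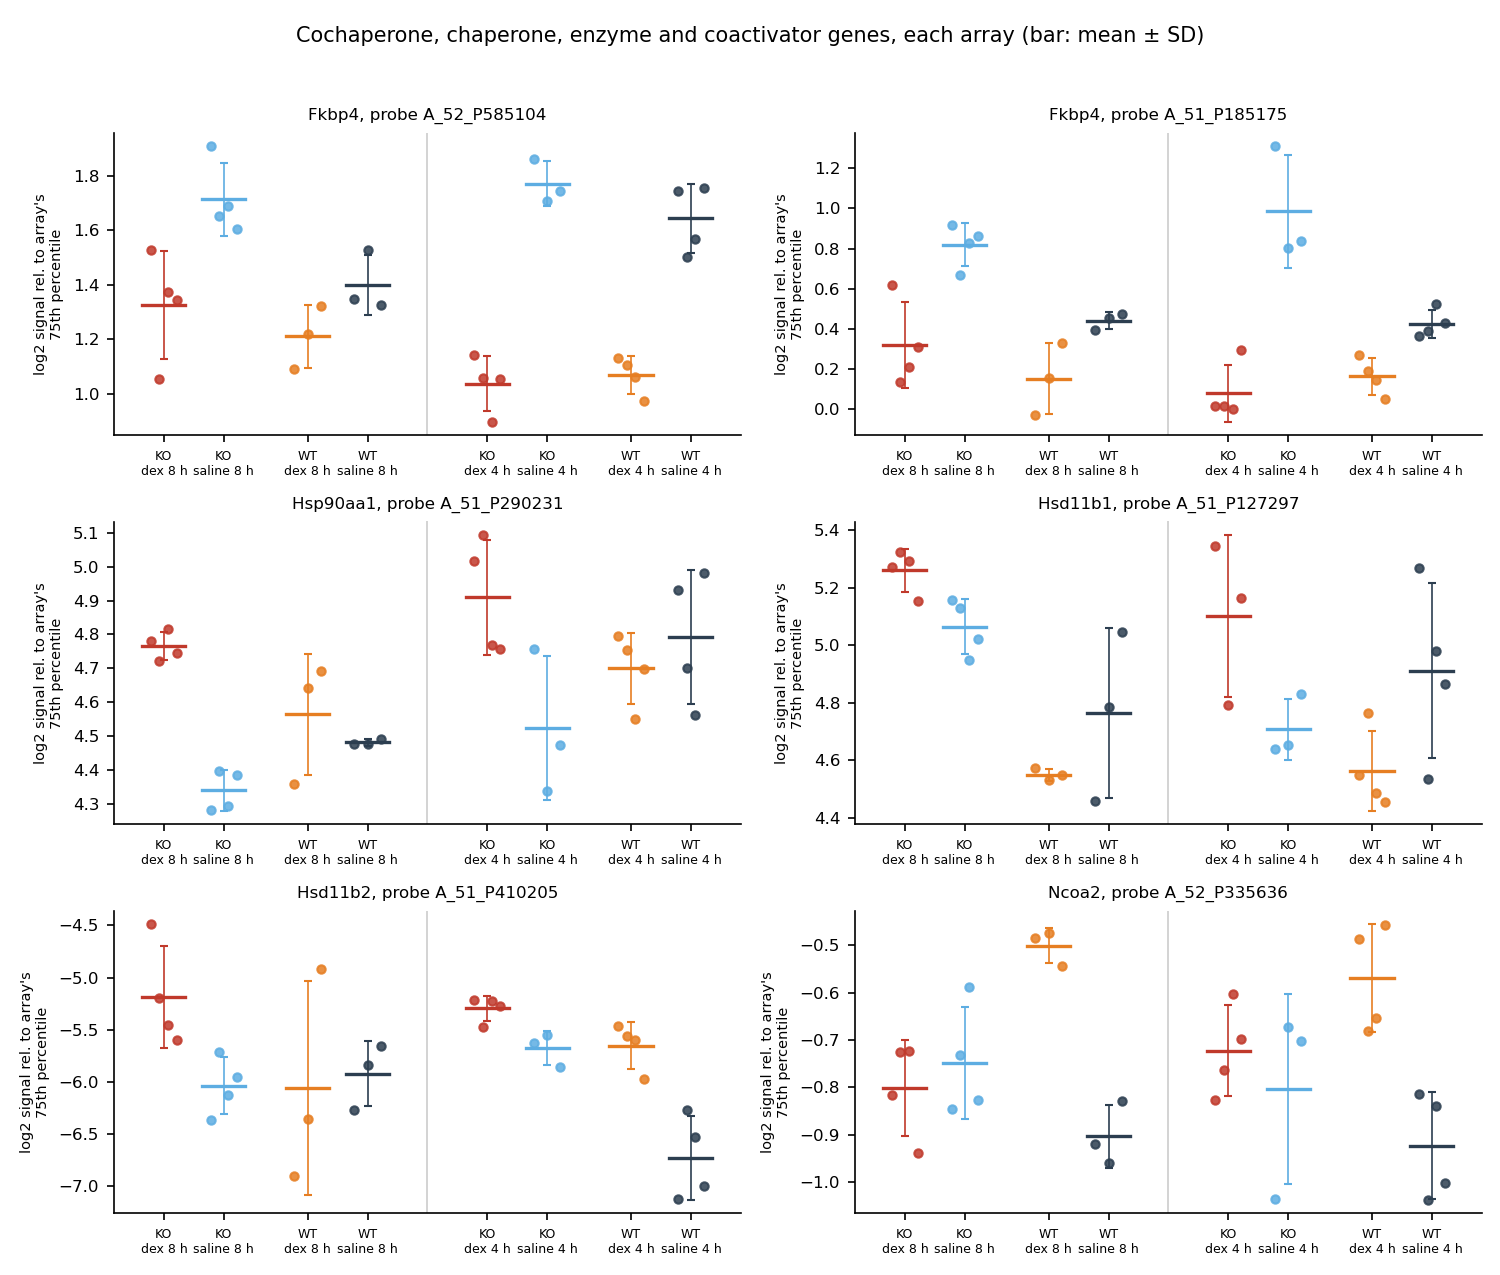
Log2 level of both Fkbp4 probes, and of 1 probe each of Hsp90aa1, Hsd11b1, Hsd11b2 and Ncoa2, on each array (points), with mean and SD, for the 8 groups. Dex arrays lie below saline arrays for Fkbp4 at 4 h, the KO dex arrays of Hsd11b1 lie above the WT dex arrays, and the WT dex arrays of Ncoa2 lie above the WT saline arrays. The vertical scales differ between panels.

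Hsd11b1, which encodes the enzyme that regenerates active corticosterone, was higher in KO than in WT lungs at 8 h after dex. On its single probe (A_51_P127297) the levels were 5.27, 5.33, 5.29 and 5.15 in KO dex 8 h lungs, against 4.57, 4.53 and 4.55 in WT dex 8 h lungs. The 2 groups were apart by more than 0.5 log2 units, with a difference of 0.71 (SE 0.15, adjusted p = 0.00939, limma). At 4 h the 3 KO dex arrays with a value (1 was set aside as an outlier spot) lay at 5.35, 4.79 and 5.17, against 4.55, 4.76, 4.49 and 4.46 in WT dex lungs, a difference of 0.54 (SE 0.15) that missed the threshold (adjusted p = 0.136). Under saline the genotypes overlapped, at -0.20 (adjusted p = 0.339) at 4 h and 0.30 (adjusted p = 0.179) at 8 h. After dex at 4 h the probe gave 0.39 (SE 0.16, adjusted p = 0.05) in KO lungs and -0.35 (SE 0.13, adjusted p = 0.0494) in WT lungs, both at the edge of the threshold with overlapping groups. The difference of these effects, 0.74 (SE 0.21, adjusted p = 0.0281), was called, and was lost in 12 of 26 alternatives. The 8 h difference under dex was lost with slide as a fixed block and under both quantile-normalized settings, with adjusted p up to 0.138.

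Hsd11b2, which encodes the inactivating enzyme and is known mainly from kidney and colon, had a dim signal, well above background on 27 of 29 arrays. Its probe (A_51_P410205) lay at -5.22, -5.47, -5.23 and -5.27 in KO dex 4 h lungs, against -5.63, -5.55 and -5.86 in KO saline 4 h lungs. It lay at -5.47, -5.56, -5.60 and -5.98 in WT dex 4 h lungs, against -7.12, -6.27, -6.53 and -7.00 in WT saline 4 h lungs. The groups were apart in both genotypes, narrowly so in KO lungs. WT lungs gave a rise of 1.08 (SE 0.30, adjusted p = 0.0067), with 3 of 4 WT saline 4 h arrays well above background. KO lungs gave 0.38 (SE 0.32, adjusted p = 0.385), which was not called. At 8 h the rise was 0.85 (SE 0.30, adjusted p = 0.0285) in KO lungs, and WT lungs gave -0.14 (adjusted p = 0.834) with 2 of 3 dex arrays well above background. Under saline at 4 h the probe was higher in KO lungs by 1.05 (SE 0.32, adjusted p = 0.0263), a call that was lost in 7 of 18 alternatives. No interaction with genotype or time was called for it.

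Between genotypes, fewer of the 22 probes were called under dex than under saline. Under dex at 4 h limma called 0 of 22 probes (3 had an unadjusted p under 0.05), where 0.554% of all probes were called. At 8 h it called 3, all higher in KO lungs (the 2 Fkbp5 probes and Hsd11b1 above), where 2.75% were. Under saline 7 probes were called at 4 h (6 higher in KO lungs, 1 lower), with 18.8% of all probes called, and 5 at 8 h (all higher), with 11.2%. Of these 12 calls under saline, the 11 higher ones lay on the dimmer probes of Nr3c1, Nr3c2 and Ncoa2, on Fkbp4 and on Hsd11b2, and the lower one on the brightest Nr3c1 probe. The difference of the dex effect between KO and WT lungs was called on 6 probes at 4 h (3 more positive, 3 more negative), with 9.65% of all probes called, and on 1 at 8 h, with 3.14%. All 7 of these differences use the KO saline arrays.

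The wider pathway was read by the brightest probe of each gene. Of 11 measured receptor targets chosen as known glucocorticoid-induced genes, 11 rose at 4 h in KO lungs and 11 in WT lungs. At 8 h 10 rose in KO lungs and 4 in WT lungs. Over all genes, 41.4% were called in either direction in KO lungs and 35.9% in WT lungs at 4 h. At 8 h these shares were 40.8% in KO lungs and 21.8% in WT lungs. The targets, like the other lists, were chosen with earlier results of these data known. At 4 h Glul, glutamine synthetase, rose by 2.32 (SE 0.09) in KO lungs and by 1.92 (SE 0.09) in WT lungs. Pdk4, the kinase that shuts pyruvate dehydrogenase, rose by 3.21 (SE 0.22) in KO lungs and by 3.34 (SE 0.20) in WT lungs, and Cdkn1a, the cell cycle inhibitor p21, by 3.02 (SE 0.19) in KO lungs and by 3.04 (SE 0.17) in WT lungs. The median target changed by 1.75 at 4 h in KO lungs and by 1.29 in WT lungs, beside medians over all genes of 0.05 in KO lungs and -0.03 in WT lungs. At 8 h the target medians were 0.92 in KO lungs and 0.47 in WT lungs, beside medians over all genes of 0.10 and -0.06.

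Of 18 other chaperones and cochaperones of the receptor cycle, 7 were called at 4 h in KO lungs (4 higher, 3 lower) and 5 in WT lungs (all lower), and at 8 h 7 in KO lungs (6 higher, 1 lower) and 1 in WT lungs (higher). These shares lie near or below those of all genes. The split in direction over all genes differed by genotype as well. At 4 h 3693 genes were called higher and 2667 lower in KO lungs, and 2163 higher and 3341 lower in WT lungs. At 8 h 3651 were higher and 2606 lower in KO lungs, and 1292 higher and 2055 lower in WT lungs. In KO lungs at 4 h Dnajb1, an Hsp40, rose by 0.64 (SE 0.11), Fkbpl by 0.58 (SE 0.11) and the kinase-specific cochaperone Cdc37 by 0.39 (SE 0.10). In WT lungs at 4 h Cdc37 was called lower, by 0.30 (SE 0.09, adjusted p = 0.0158, limma). Dnajb1 (-0.03) and Fkbpl (-0.04) were not called there. The KO values rest on the KO saline arrays. In WT lungs at 4 h Hspa1b, an inducible Hsp70, fell by 0.66 (SE 0.16), Hspa4 by 0.28 (SE 0.07) and the Hsp70 regulator Bag1 by 0.26 (SE 0.06). Of 17 measured coregulators, 12 were called at 4 h in KO lungs (8 higher, 4 lower) and 6 in WT lungs (5 higher, 1 lower), and at 8 h 11 in KO lungs (9 higher, 2 lower) and 2 in WT lungs (both higher). The shares over all genes were 41.4% in KO and 35.9% in WT lungs at 4 h, and 40.8% in KO and 21.8% in WT lungs at 8 h, so both WT counts lay near or below them. Ncoa1, a coactivator of the same family as Ncoa2, rose at 4 h by 1.11 (SE 0.10) in KO lungs and by 0.56 (SE 0.09) in WT lungs, and the deacetylase gene Hdac2 fell by 1.34 (SE 0.19) in KO lungs and by 0.88 (SE 0.18) in WT lungs. Of 6 measured genes of steroid supply and clearance, 3 were called at 4 h in KO lungs (1 higher, 2 lower) and 1 in WT lungs (lower), and at 8 h 2 in KO lungs and 1 in WT lungs, all higher, beside the same shares over all genes. H6pd, which supplies the cofactor for the enzyme encoded by Hsd11b1, rose by 0.66 (SE 0.13) at 4 h and 0.64 (SE 0.12) at 8 h in KO lungs, and by 0.44 (SE 0.14) at 8 h in WT lungs, where it stood at 0.28 (SE 0.12, adjusted p = 0.0753) at 4 h.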

How the data were processed

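Lung RNA labelled with Cy3 was measured on 29 single-colour Agilent arrays. Per the file headers, the deposited intensities are processed signals of Agilent Feature Extraction 10.7.3.1 (10.6 per the submitters' processing notes), background-subtracted within each array and not normalized between arrays. A deposited table of log2 values, made by unstated steps, served as an alternative. Control and outlier spots were left out, spots of 1 probe were averaged, and log2 of the processed signal was set relative to the array's 75th percentile. A probe was kept where some group had 3 or more arrays with the probe well above background (33923 of 41174). Accessions matched 1 RefSeq gene (GRCm38.p6) for 24844 probes and none for 16330. limma 3.58.1 in R 4.3.3 was fitted with 8 group means, p-values were adjusted by the Benjamini-Hochberg method over all kept probes within each of 14 comparisons, and 0.05 was the threshold. Procedures were tested on simulated data. Lists were read by the brightest kept probe of each gene.

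The members and lists were chosen with earlier results of these data known. Members were described on every probe, up to 3 called genes with the lowest p were named per list and dex comparison (for some lists only at 4 h), and for Fkbp5 and Nr3c1 the 3 genes most alike over the arrays. Arrays correlated at 0.971 to 0.990 within groups. They lay on 8 slides of 2 to 4 arrays, scanned on 1 day, and the correlation within slides was 0.38. Within slides that held both groups, called dex values kept their sign in 12 of 13 (KO 4 h), 26 of 26 (KO 8 h), 25 of 26 (WT 4 h) and 4 of 4 (WT 8 h), as did 5 of 5 for KO against WT saline at 8 h. These are values per probe and slide, from 1 slide (KO 4 h), 2 (KO 8 h), 2 (WT 4 h) and 1 (WT 8 h). The saline comparison had 1 slide. Each of these slides held 1 array of either group in the comparison, so the values of a slide are not independent. The other genotype comparisons had no slide with the groups needed. Alternatives covered slide, normalization, background correction, filter, probe choice, the deposited table, the groups in the fit, the variance model and each array left out.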

Additional observations from a re-analysis of the deposited data

Results flagged for a closer look

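In 3 of the 109 groups of 4 arrays that were examined, 1 array stood far from the other 3, where chance gives about 1 in 20. For Fkbp5 these were an array at 2.61 among WT dex 4 h lungs on A_51_P383689, where all 4 arrays lay close together, and an array at -4.26 among WT saline 4 h lungs on A_52_P337899. For Fkbp4 it was an array at 0.29 among KO dex 4 h lungs on A_51_P185175.

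The effect of dex at 4 h differed between KO and WT lungs on 6 probes (limma, KO effect minus WT effect). For Nr3c1 the difference was 0.48 on A_52_P138090 and -0.97 on A_51_P355693, opposite in sign. It was -1.36 for Nr3c2 on A_52_P264543, a probe that was well above background on 8 of 29 arrays, on none of the KO dex 4 h or WT saline 4 h arrays, and that passed the filter through the KO saline groups alone, so this value measures no size and supports no difference. It was -0.64 for Fkbp4 on A_51_P185175, 0.48 for Hsp90aa1 and 0.74 for Hsd11b1. At 8 h the difference was called on 1 probe, Nr3c1 A_51_P355693, at -1.26. All 7 use the KO saline arrays.

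The effect of dex differed between 8 and 4 h (8 h effect minus 4 h effect) for Fkbp5 on all 3 probes, by -2.91, -2.08 and -2.07 in KO lungs and by -3.09, -3.04 and -2.76 in WT lungs. For Nr3c1 on A_52_P138090 it differed by 0.55 in WT lungs.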

How the results depend on the processing

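Counts of called member probes moved by over 1.5 times as follows. With 1 probe per gene (10 genes), dex against saline gave 6 (KO 4 h), 5 (KO 8 h), 8 (WT 4 h) and 1 (WT 8 h), KO against WT gave 1 (dex 8 h), 2 (saline 4 h) and 1 (saline 8 h), the genotype difference in the dex effect at 4 h gave 3, its time difference 1 (KO) and 2 (WT), and saline times 0 in both genotypes. Over 15345 genes, dex against saline then gave 6520 (KO 4 h), 6541 (KO 8 h), 5615 (WT 4 h) and 3616 (WT 8 h). KO against WT gave 755, 3772 and 1997 in the same order. The genotype difference at 4 h gave 2500, the time difference 469 (KO) and 914 (WT), and saline times 166 (KO) and 196 (WT). With only the groups compared in the fit, the counts were 2 (dex, WT 8 h), 1 (KO against WT, dex 8 h), 2 (saline 8 h), 1 (genotype difference, 4 h), 2 (time difference, WT) and 0 for saline times in both genotypes. Over all 33923 probes this setting called 1605, 49, 741, 537 and 886 in the same order, and for saline times 4 (KO) and 0 (WT). The main fit had called 6262, 932, 3813, 3275 and 1557, and for saline times 231 (KO) and 462 (WT). Quantile normalization, normexp with quantile normalization and the deposited table each gave 4 for KO against WT under saline at 4 h, 2 for the genotype difference at 4 h and 1 for WT saline times. Over all probes these settings gave 4353, 3411 and 3025 for KO against WT under saline at 4 h, where the main fit gave 6388. They gave 1694, 1028 and 743 for the genotype difference at 4 h. For WT saline times they gave 289, 228 and 229. Median scaling gave 1 (KO against WT, saline 8 h), 2 (genotype difference, 4 h) and 1 (WT saline times), and no filter gave 2 (KO against WT, saline 8 h). Of all probes, median scaling called 1741, 1669 and 179 in the same order, and no filter 3253 of 41174. The genotype difference at 8 h gave 0 with slide as a fixed block (2 at 4 h), 2 with slide as a random block, 2 with trend and robust variance and 3 over probes well above background on all arrays. Over all probes these settings gave 244 (3062 at 4 h), 1396, 1308 and 1395 of 28181, where the main fit gave 1065. Leaving out 1 array gave 11 to 13 (dex, KO 4 h), 9 to 14 (KO 8 h), 11 to 13 (WT 4 h) and 4 to 5 (WT 8 h), for KO against WT 0 to 1 (dex 4 h), 1 to 3 (dex 8 h), 3 to 8 (saline 4 h) and 1 to 4 (saline 8 h), for the genotype difference 2 to 7 (4 h) and 1 to 2 (8 h), for the time difference 2 to 3 (KO) and 3 to 5 (WT), and for saline times 2 to 3 (KO) and 1 to 3 (WT).

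Of the called dex values, 2 changed sign within a slide: Nr3c2 A_51_P377914 stood at -0.23 (dex, WT 4 h) and Hsd11b1 at -0.037 (dex, KO 4 h). By the mean of a gene's probes, an alternative chosen after seeing the data, as was leaving out the KO saline arrays, Nr3c1 in KO minus WT saline lungs stood at 0.27 (4 h) and 0.34 (8 h), its genotype difference at 4 h at -0.32, and Fkbp5 in WT lungs at 8 h at 1.21. The causes were not tested. Normexp was run on the median signal alone, not on the mean. No paired analysis was possible because the groups share no replicate numbers, and slide was the block that could be used.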
